A study of Mus musculus with 24 samples.

Results

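Livers of wild-type mice given TCPOBOP were compared with livers of human CAR mice given CITCO, so that mouse CAR and human CAR were each met by the agonist named for that receptor. The arrays were chosen by their titles alone, 2 for wild type on TCPOBOP and 2 for human CAR on CITCO, which makes 4 of the 24 arrays of the series. The comparison is of the levels reached with the ligand, and the corn oil arrays of both genotypes were used to show where each level started. Each array held liver RNA of 1 mouse.

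All mice were labelled female and of mixed C57BL/6x129Sv background, and no source used here gives their ages. Wild-type mice had mouse CAR only. The human CAR mice, titled CAR.AH, expressed human CAR from a transgene with a hepatocyte promoter, that of mouse albumin, and had no mouse CAR (mCAR -/-), and this line was made by crossing transgenic mice to knockouts over 2 breeding cycles. TCPOBOP was injected into the peritoneum once, at 3 mg/kg, with corn oil on the remaining days of a 3-day schedule. CITCO was injected on each of the 3 days at 30 mg/kg. Corn oil mice of both genotypes received vehicle only, and CAR.KO mice, which had neither form of CAR, received the same ligands. Livers were collected 6 h after the last injection. For CITCO the last injection held the ligand. For TCPOBOP it was corn oil unless the single ligand injection fell on the last day, so the time since ligand may differ too. Receptor, ligand, dose and number of ligand injections all differ between the groups compared. Their parts, and that of the time since ligand, cannot be told apart.

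CAR is the constitutive androstane receptor, the product of Nr1i3, a nuclear receptor of hepatocytes that is held in the cytoplasm, enters the nucleus when activated and binds DNA as a heterodimer with the retinoid X receptor. Its best-known targets are cytochromes P450 of the Cyp2b and Cyp2c families, which oxidise drugs and steroids, together with transferases and exporters that conjugate and remove the products. In rodents strong activation of CAR is also known to enlarge the liver, to drive hepatocytes into the cell cycle and to lower genes of gluconeogenesis and fatty acid oxidation.

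Values are log2 expression as deposited, differences are wild type on TCPOBOP minus human CAR on CITCO unless another pair is named, and a difference of 1 is a 2-fold change. SE is limma's standard error, and each adjusted p is limma's with Benjamini-Hochberg adjustment over the 9167 genes tested, with 0.05 as the threshold. A probe set is called dim on an array when it lay below the 40th percentile of all probe sets there. Array medians ran between 5.41 and 5.51, and the median SD between the 2 arrays of a group was 0.0948 for wild type on TCPOBOP and 0.151 for human CAR on CITCO, the highest of the 12 groups. The 3' minus 5' log2 signal of the actin and Gapdh control probe sets, a measure of RNA integrity, was 0.415 and 0.360 on the TCPOBOP arrays and 0.431 and 0.593 on the CITCO arrays, without overlap, and its part in the results was not tested. On the first principal component, with 21.7% of the variance, the TCPOBOP arrays stood at -8.11 and -8.60 and the CITCO arrays at 11.5 and -4.27. A pair of arrays outside this comparison, both from phenobarbital-treated mice, stood far from the rest, and leaving them out of the fit gave 898 called genes instead of 493. The 12 hepatocyte markers tested averaged 11.64 and 11.67 on the TCPOBOP arrays and 11.83 on both CITCO arrays, and none of them differed by the test. Xist, the transcript of the inactive X chromosome, lay between 2.86 and 5.51 over its 3 probe sets on all 24 arrays and 6 probe sets of Y-linked genes between 2.63 and 5.30, and neither marked the mice as female or male. The labelled sex is therefore unchecked here, which bears on genes with known sex bias such as Slco1a1, Gstp3 and Cyp4a12a. Slco1a1 read 10.12 and 9.76 in wild-type mice on corn oil, and Cyp4a12a 10.85 and 10.06 in wild-type mice on CITCO. The mean level of 17 genes known to be higher in male mouse liver was uneven on corn oil. It was 9.86 and 9.43 in wild type, against 8.15 and 9.18 in human CAR mice. Whether such levels belong to female livers was not tested.

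The Nr1i3 probe set separated the groups by genotype. Nr1i3 read 7.03 and 6.84 in wild-type TCPOBOP livers, against 5.07 and 5.50 in human CAR CITCO livers, a log2 difference of 1.65 (SE 0.19, adjusted p = 5.02e-05). On corn oil the difference was 2.26, with 7.58 and 7.37 in wild type and 5.04 and 5.38 in human CAR mice. The 8 knockout arrays lay between 5.06 and 5.40, next to the 2 human CAR CITCO arrays. Whether its probes fall inside the deletion, and whether they read the human transgene, was not checked here.

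Of the 9167 genes tested, 493 (5.38%) differed between the livers, 248 (2.71%) higher and 245 (2.67%) lower in wild type on TCPOBOP. Among them 71 were at least 2-fold higher and 42 at least 2-fold lower, together 1.23% of the genes tested. The groups did not overlap for any of the 493, but this held for 45.7% of all genes, since only 2 arrays stood on each side. The median difference over all genes was 0.01. At an unadjusted p under 0.05, 973 genes were higher and 960 lower. The count depended on single mice: it was 180 without CITCO array 1, 637 without CITCO array 2, 224 without TCPOBOP array 1 and 169 without TCPOBOP array 2, and 101 genes were called in all 4 of these fits. No source used here names litters. The p-values measure only the spread between mice of a group. That spread was estimated over all 12 groups of the series, not from the 4 mice compared alone.

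The 4 markers of activated CAR did not behave alike. Cyp2b10, the classical P450 target, reached 12.24 and 12.48 in wild-type TCPOBOP livers, against 11.37 and 11.68 in human CAR CITCO livers. The difference of 0.83 (SE 0.38, 95% interval 0.02 to 1.64) had an adjusted p of 0.226 and did not pass. Cyp2c55, another P450 of the CAR response, read 11.98 and 11.94 in wild-type TCPOBOP livers, against 8.50 and 8.70 in human CAR CITCO livers, 10.3-fold higher (log2 difference 3.36, SE 0.44, adjusted p = 0.000202). Gstm3, a mu-class glutathione transferase, read 12.78 and 12.85 in wild-type TCPOBOP livers, against 10.51 and 10.28 in human CAR CITCO livers, 5.34-fold higher (log2 difference 2.42, SE 0.36, adjusted p = 0.000631). Birc5, which encodes survivin, a protein of dividing cells, read 5.54 and 5.64 in wild-type TCPOBOP livers, against 3.81 and 3.58 in human CAR CITCO livers (log2 difference 1.89, SE 0.12, adjusted p = 6.13e-08). Birc5 was dim on both CITCO arrays, and its 8 knockout arrays lay between 3.53 and 3.89, so the CITCO livers stood at or near the level found without CAR. For Cyp2c55 and Gstm3 the 2 groups were far apart and the mice of a group close together, whereas for Cyp2b10 the gap between the groups was less than 1 log2 unit.

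**Figure D1:**
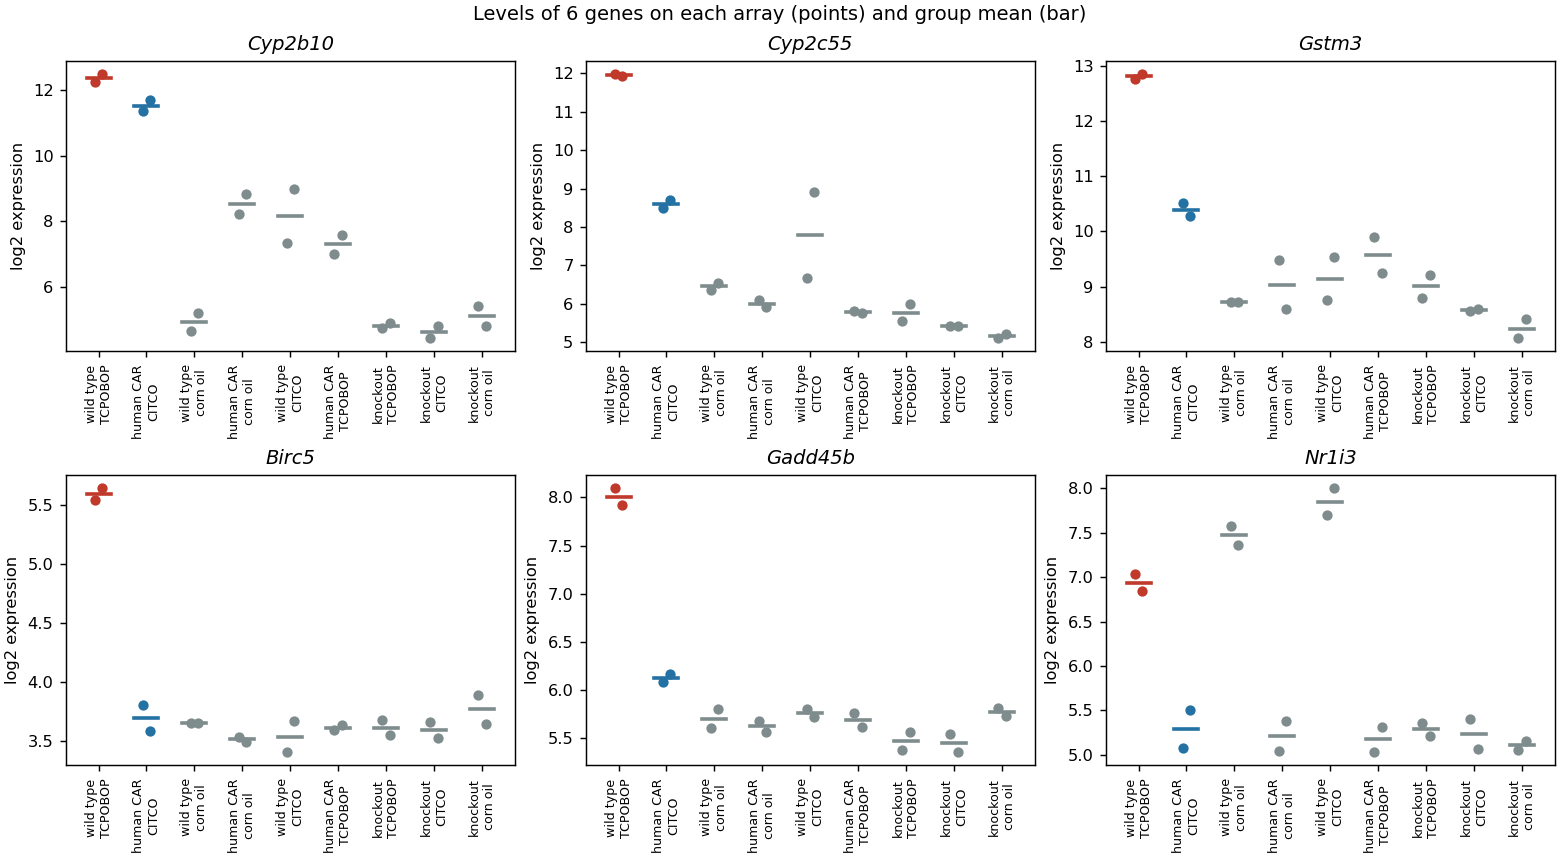
Log2 expression of Cyp2b10, Cyp2c55, Gstm3, Birc5, Gadd45b and Nr1i3 on each array (points) with the mean of each group (bar), for 9 groups of 2 mice; wild type on TCPOBOP is red, human CAR on CITCO blue and the other groups grey. Cyp2b10 is high in both coloured groups (12.24 and 12.48, against 11.37 and 11.68), while Birc5 stands at 5.54 and 5.64 in wild type on TCPOBOP and below 4 in all other groups shown.

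Of the 4 markers, Cyp2b10 was the one that also differed on corn oil. There Cyp2b10 read 4.66 and 5.22 in wild type and 8.22 and 8.82 in human CAR mice, a log2 difference of -3.58 (adjusted p = 0.000272), so that the genotype with the lower vehicle level had the higher mean with ligand. Its change from corn oil was 7.42 in wild type on TCPOBOP and 3.01 in human CAR on CITCO, and these changes differed by 4.41 (SE 0.54, adjusted p = 0.000323). The corn oil differences of Cyp2c55 (0.45), Gstm3 (-0.32) and Birc5 (0.14) did not pass the test. For Cyp2c55 the change from corn oil was 5.51 in wild type on TCPOBOP and 2.60 in human CAR on CITCO. For Gstm3 it was 4.10 in wild type on TCPOBOP and 1.36 in human CAR on CITCO, of which the second did not pass (adjusted p = 0.32).

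For Cyp2b10 and Gstm3 each ligand in the other genotype gave lower values than in its matched genotype. Cyp2b10 read 7.02 and 7.59 in human CAR mice on TCPOBOP and 7.36 and 8.98 in wild-type mice on CITCO, below both matched groups, and its 8 knockout arrays lay between 4.45 and 5.71. Cyp2c55 read 5.80 and 5.75 in human CAR mice on TCPOBOP. In wild-type mice on CITCO it read 6.66 and 8.90, and the second of these mice stood above both human CAR mice on CITCO. Gstm3 read 9.90 and 9.24 in human CAR mice on TCPOBOP and 8.75 and 9.54 in wild-type mice on CITCO. Birc5 read 3.59 and 3.64 in human CAR mice on TCPOBOP, and its 3.40 and 3.67 in wild-type mice on CITCO overlapped the values in human CAR mice on CITCO.

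Among 27 tested P450s of drug metabolism and their partners, 4 were higher in wild type on TCPOBOP, where 2.71% of all genes were, none lower, and the median difference was 0.32. Besides Cyp2c55 these were Cyp2c54 (1.38, adjusted p = 0.0159), Cyp3a25 (0.86, adjusted p = 0.033) and Cyb5a, the electron donor cytochrome b5 (0.38, adjusted p = 0.0398). These 3 lost the call when any 1 of the 4 arrays was left out. Cyp3a11, a major drug-metabolising P450 of mouse liver, read 12.47 and 12.62 in wild-type TCPOBOP livers, against 12.18 and 12.27 in human CAR CITCO livers, and its difference of 0.32 did not pass (adjusted p = 0.244). Cyp1a2, which oxidises caffeine and arylamines, read 11.89 and 12.12 in wild-type TCPOBOP livers, against 11.61 and 11.26 in human CAR CITCO livers (0.57, adjusted p = 0.135). Cyp2c37 and Cyp2c50, singled out after their values were seen, had differences of 2.95 (adjusted p = 0.0642) and 1.26 (adjusted p = 0.102). In Cyp2c37 the 2 human CAR CITCO mice read 6.27 and 8.26. The Cyp2c genes are close paralogs whose probe sets may bind each other's transcripts, and levels of single members are uncertain.

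Of 24 glutathione transferases and enzymes of glutathione synthesis, 7 were higher and 1 lower in wild type on TCPOBOP, against 2.71% and 2.67% of all genes, with a median of 0.14. The mu-class Gstm2 read 10.74 and 11.05 in wild-type TCPOBOP livers, against 9.28 and 8.13 in human CAR CITCO livers (2.19, SE 0.31, adjusted p = 0.000513), and the theta-class Gstt3 read 9.05 and 9.31 in wild-type TCPOBOP livers, against 7.49 and 7.02 in human CAR CITCO livers (1.93, SE 0.25, adjusted p = 0.000202). Both genes had separate groups, as did 45.7% of all genes, with the larger gap between mice among the CITCO livers. Gsta4, which clears lipid aldehydes, was higher by 1.30, Gstt1 by 1.21, Gstm1 by 1.02 and Gsr, glutathione reductase, by 0.41. Gstm6 was the member that was lower, with 7.11 and 7.0 in wild-type TCPOBOP livers, against 8.05 and 7.78 in human CAR CITCO livers (-0.86, adjusted p = 0.0396), and no member was called lower without CITCO array 1 or either TCPOBOP array. Gclc (0.33) and Gclm (-0.14), the subunits of the enzyme that limits glutathione synthesis, did not pass.

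Of 32 enzymes of glucuronidation, sulfation and hydrolysis, 7 were higher and 2 lower in wild type on TCPOBOP (2.71% and 2.67% of all genes; median 0.20), and without TCPOBOP array 2 the total was 5. Sult1e1, the estrogen sulfotransferase, read 6.6 and 8.93 in wild-type TCPOBOP livers, against 3.68 and 4.31 in human CAR CITCO livers, where it was dim on both arrays, a difference of 3.76 (SE 0.46, adjusted p = 0.000118) that was 2.60 without TCPOBOP array 2 and 4.93 without TCPOBOP array 1. The wild-type mice differed from each other by more than 2 log2 units in this gene, yet both stood above the 2 CITCO mice and above the 8 knockout arrays, which lay between 4.03 and 4.78. Ces2a, a carboxylesterase of the endoplasmic reticulum, was higher by 1.47 (adjusted p = 0.000261), Papss2, which makes the sulfate donor, by 1.27, Ugt2b34, a glucuronosyltransferase, by 1.07, the flavin monooxygenase Fmo5 by 0.94 and the epoxide hydrolase Ephx1 by 0.74. The Papss2 call held only without CITCO array 1, and its other probe sets gave 0.97, 0.25 and 1.10. Aox3, a liver aldehyde oxidase, read 8.25 and 8.63 in wild-type TCPOBOP livers, against 9.75 and 9.39 in human CAR CITCO livers (-1.13, adjusted p = 0.00266), and Ugt3a2 was lower by a similar amount (-0.97, adjusted p = 0.000202).

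Among 15 transporters, 1 was higher and 1 lower, against 2.71% and 2.67% of all genes, and the calls of both were lost without TCPOBOP array 2 or either CITCO array, that of the higher one also without TCPOBOP array 1. Abcc3, which exports conjugates into the blood, read 10.61 on both wild-type TCPOBOP arrays, against 10.15 and 10.00 in human CAR CITCO livers (0.54, adjusted p = 0.0394). Slco1a1, an uptake carrier for organic anions, read 8.36 and 7.34 in wild-type TCPOBOP livers, against 9.55 and 9.65 in human CAR CITCO livers (-1.75, adjusted p = 0.0433). Its corn oil values were 10.12 and 9.76 in wild type and 7.77 and 9.28 in human CAR mice.

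**Figure D2:**
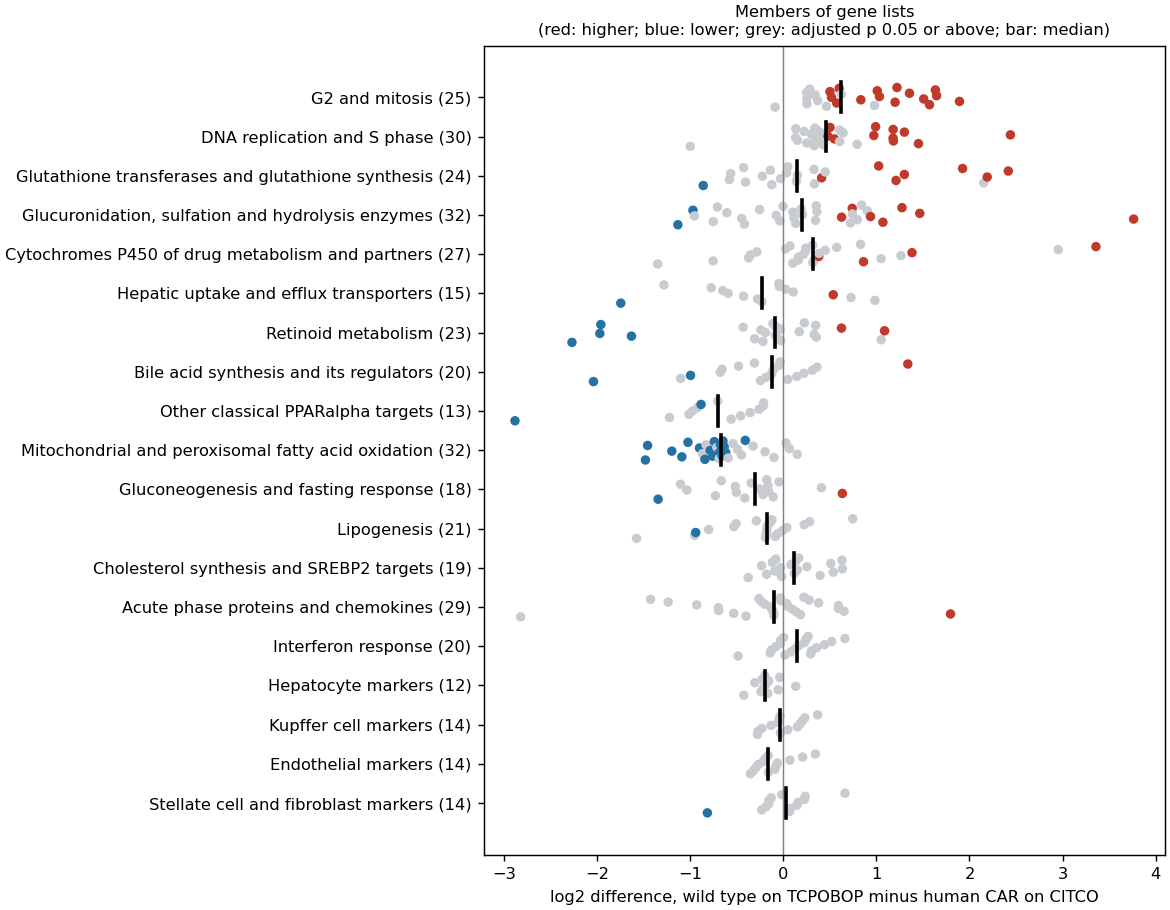
Log2 difference, wild type on TCPOBOP minus human CAR on CITCO, of each tested member of 19 gene lists (points; members tested in brackets), red where higher, blue where lower and grey where the adjusted p was 0.05 or above, with the median as a bar. The medians are 0.62 for mitosis and 0.46 for DNA replication at one end and -0.67 for fatty acid oxidation and -0.71 for other PPARalpha targets at the other, against 0.01 over all genes.

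Genes of the cell cycle that passed in the fit of all 24 arrays were all higher in wild type on TCPOBOP. Of 25 genes of G2 and mitosis 15 were higher (median 0.62), and of 30 genes of DNA replication and S phase 11 were higher (median 0.46), where 2.71% of all genes were. The mean level over the 25 mitosis genes was 6.33 and 6.18 in wild-type TCPOBOP livers, against 5.43 and 5.42 in human CAR CITCO livers, and the corresponding values on corn oil were 5.40 and 5.32 in wild type and 5.37 and 5.42 in human CAR mice. Over the 30 replication genes it was 6.21 and 6.39 in wild-type TCPOBOP livers, against 5.70 and 5.71 in human CAR CITCO livers. Since 7 of the 15 mitosis genes and 3 of the 11 replication genes were dim on both CITCO arrays, they passed the filter on dim probe sets through groups where they were high, and their differences set a level against one near the floor of the array.

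The promoters of 3 mitotic genes and of 1 replication gene are shown because the lists that hold them had the largest share of higher members. They are from RefSeq on the mouse build GRCm38.p6 and run over 300 bases, 250 before to 50 after the start of the gene, in the direction of transcription. Capitals in the first 3 mark TTTGAA, the cell cycle homology region of late cell cycle promoters, and CCAAT, the element bound by NF-Y, on either strand. Capitals in the last mark matches to TTTCCCGC, TTTGGCGC, TTTGGCGG or TTTCGCGC on either strand, forms of the site bound by E2F factors, of which 2 overlap. The windows are chr9:70421505-70421804 for Ccnb2, chr10:69352863-69353162 for Cdk1, chr7:135716330-135716629 for Mki67 and chr1:128359656-128359955 for Mcm6, all 4 on the minus strand.
Ccnb2: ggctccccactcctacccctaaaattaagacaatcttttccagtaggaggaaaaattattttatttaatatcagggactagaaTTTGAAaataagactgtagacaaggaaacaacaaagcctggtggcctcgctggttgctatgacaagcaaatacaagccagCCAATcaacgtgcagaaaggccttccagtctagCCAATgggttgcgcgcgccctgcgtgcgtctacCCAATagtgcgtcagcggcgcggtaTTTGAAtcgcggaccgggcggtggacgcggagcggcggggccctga
Cdk1: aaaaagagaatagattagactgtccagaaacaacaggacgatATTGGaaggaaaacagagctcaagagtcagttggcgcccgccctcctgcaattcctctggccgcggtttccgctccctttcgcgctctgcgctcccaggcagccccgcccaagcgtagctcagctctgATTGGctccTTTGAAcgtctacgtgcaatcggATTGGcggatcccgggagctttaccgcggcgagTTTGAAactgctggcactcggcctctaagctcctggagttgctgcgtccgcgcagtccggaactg
Mki67: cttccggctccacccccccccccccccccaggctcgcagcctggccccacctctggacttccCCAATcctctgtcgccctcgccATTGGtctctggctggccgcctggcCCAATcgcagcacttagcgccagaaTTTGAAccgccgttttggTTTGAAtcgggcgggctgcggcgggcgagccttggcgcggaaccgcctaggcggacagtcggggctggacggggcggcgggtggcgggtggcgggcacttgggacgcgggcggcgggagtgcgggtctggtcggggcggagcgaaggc
Mcm6: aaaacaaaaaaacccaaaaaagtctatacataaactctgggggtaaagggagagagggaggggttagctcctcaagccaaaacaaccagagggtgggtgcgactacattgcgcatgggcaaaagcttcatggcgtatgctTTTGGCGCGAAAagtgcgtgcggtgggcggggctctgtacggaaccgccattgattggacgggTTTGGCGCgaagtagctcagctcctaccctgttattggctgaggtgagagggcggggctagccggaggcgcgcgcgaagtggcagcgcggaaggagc

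Ccnb2, Cdk1 and Mki67 each had 2 matches to TTTGAA and 3 to CCAAT, and Mcm6 had 3 E2F matches. Of the 15 higher mitosis genes 12 had a promoter in the table, and 10 of the 12 held both TTTGAA and CCAAT, against 4.80% of the 7389 tested genes with a promoter and 7.12% of all 27025 promoters. Among the tested mitosis genes that did not pass the test the count was 6 of 9. E2F matches were in 4 of 10 promoters of the higher replication genes, against 4.2% of the tested genes and 2.42% of all promoters. The Birc5 window held none of these letters. A match is a string of letters in this window and says nothing of binding.

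The mitotic kinase Cdk1 read 6.80 and 6.71 in wild-type TCPOBOP livers, against 5.62 and 5.17 in human CAR CITCO livers (1.36, SE 0.15, adjusted p = 2.78e-05). Its partner cyclin B2, Ccnb2, read 6.18 and 6.01 in wild-type TCPOBOP livers, against 4.66 and 4.52 in human CAR CITCO livers, where it was dim (1.51, SE 0.13, adjusted p = 2.13e-06). The proliferation antigen Mki67 read 5.08 and 5.39 in wild-type TCPOBOP livers, against 3.91 and 3.42 in human CAR CITCO livers, where it was dim too (1.57, SE 0.16, adjusted p = 1.79e-05). In each of these genes both wild-type TCPOBOP mice stood above both human CAR CITCO mice, but the groups were also separate for 45.7% of all genes. Stmn1, which destabilises microtubules, was higher by 1.65 and Cks1b, a subunit of cyclin-dependent kinases, by 1.63, although Cks1b lost the call without CITCO array 2 or TCPOBOP array 2. Their other probe sets gave 0.50 for Stmn1 and 0.73 for Cks1b. Ube2c, Ccna2, Pbk, Spc25, Aurka, Mad2l1, Bub1b, Cenpf and Prc1, which act in cyclin turnover, spindle assembly and cytokinesis, were higher by 0.50 to 1.22. Top2a, which untangles chromosomes, differed by -0.09 (adjusted p = 0.773), and Foxm1, a transcription factor of mitotic genes, by 0.34 (adjusted p = 0.087), neither past the threshold.

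In S phase the helicase subunit Mcm6 read 7.59 and 8.33 in wild-type TCPOBOP livers, against 5.83 and 5.21 in human CAR CITCO livers (2.44, SE 0.23, adjusted p = 7.15e-06), and a second probe set of the gene had a difference of 1.03. Its fellow subunits Mcm7 (1.30), Mcm5 (1.18) and Mcm2 (1.18) were higher too, the last pair dim on both CITCO arrays, while Mcm3 (0.13), Mcm4 (0.60) and the loading factor Mcm10 (-1.0) did not pass. Other probe sets of Mcm7 gave 0.95, 0.44 and 0.67. Rrm2, the regulated subunit of ribonucleotide reductase, read 6.49 and 6.6 in wild-type TCPOBOP livers, against 5.14 and 5.05 in human CAR CITCO livers (1.45, SE 0.14, adjusted p = 7.15e-06). Pcna, the sliding clamp, was higher by 0.99, the polymerase subunit Pola1 by 0.97, the assembly factor Chaf1b by 0.55, Rrm1 by 0.50 and the ligase Lig1 by 0.48. Ccnd1, cyclin D1, read 7.47 and 8.04 in wild-type TCPOBOP livers, against 6.27 and 6.89 in human CAR CITCO livers (1.18, SE 0.33, adjusted p = 0.0463). The knockout arrays lay between 5.90 and 7.75 in Ccnd1, with 7.62 and 7.73 on corn oil, so they overlapped the TCPOBOP livers. In human CAR mice, where 0.0873% of all genes changed from corn oil with CITCO, none of these 15 mitosis and 11 replication genes passed that test, and their changes lay between -0.49 and 0.41.

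**Figure D3:**
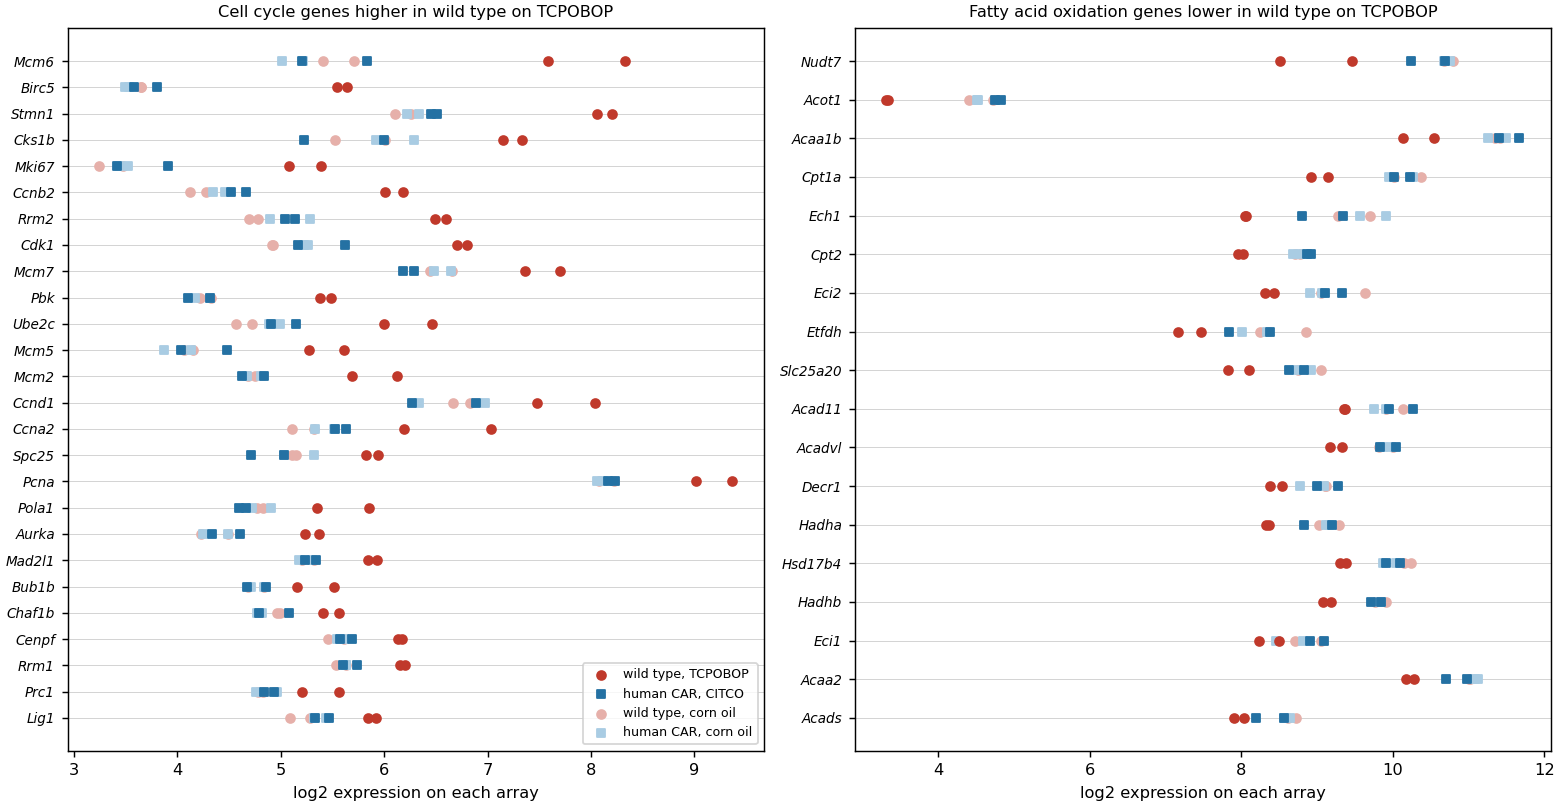
Log2 expression on each array of the 26 cell cycle genes that were higher (left) and the 18 fatty acid oxidation genes that were lower (right) in wild type on TCPOBOP than in human CAR on CITCO, ordered by the size of the difference. Dark circles are wild type on TCPOBOP, dark squares human CAR on CITCO and pale symbols the corn oil mice, with 2 mice a group. Cdk1 stands at 6.80 and 6.71 in wild type on TCPOBOP against 5.62 and 5.17 in human CAR on CITCO. On both sides the dark circles do not overlap the dark squares. This held for every called gene, and for 45.7% of all genes tested.

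Among 18 early growth genes Gadd45b alone passed, where 5.38% of all genes did. Gadd45b, a stress and growth gene that CAR is known to raise in mouse liver, read 8.09 and 7.92 in wild-type TCPOBOP livers, against 6.08 and 6.17 in human CAR CITCO livers (1.88, SE 0.28, adjusted p = 0.000684). Its other probe sets gave 2.01 and, in the dimmer one, -0.01. The immediate early genes Egr1 (-0.55), Junb (-1.09) and Myc (0.21) did not pass, and the list's median was 0.12.

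RNA of whole liver cannot tell more cells of a type from more RNA per cell, so markers of other cells are set beside these counts. None of 14 Kupffer cell, 14 endothelial and 11 neutrophil markers passed, where 5.38% of all genes did. Their medians were -0.03, -0.16 and 0.22. Mean levels of the Kupffer list were 7.79 and 7.51 in wild-type TCPOBOP livers, against 7.71 and 7.58 in human CAR CITCO livers, and those of the neutrophil list were 5.62 and 5.52 in wild-type TCPOBOP livers, against 5.24 and 5.47 in human CAR CITCO livers. Of 8 lymphocyte markers Cd3d, a T cell receptor chain, was higher by 0.39 (adjusted p = 0.0363), and the list level was 5.66 and 5.59 in wild-type TCPOBOP livers, against 5.26 and 5.50 in human CAR CITCO livers. Cd3d was dim on both CITCO arrays and its call was lost without any 1 of the 4 arrays. Of 14 stellate cell markers Rgs5 was lower in its main probe set (-0.82, adjusted p = 0.0308), with -1.61, -0.52 and 0.19 in the others, and lost the call without CITCO array 1 or TCPOBOP array 2. Rgs5 also read lower in wild type on corn oil (6.54 and 6.47) than in human CAR mice on corn oil (7.56 and 7.16). That corn oil difference of -0.85 did not pass. Alas2, the only erythroid marker tested, differed by -0.84 (adjusted p = 0.0421), a call lost without any 1 of the 4 arrays. The part of these cells in the cell cycle counts was not tested.

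Prom1, a membrane protein used to mark bile duct and progenitor cells, read 8.13 and 7.81 in wild-type TCPOBOP livers, against 5.31 and 4.89 in human CAR CITCO livers (2.87, SE 0.27, adjusted p = 7.15e-06). It was near 4 on corn oil in both genotypes (3.95 and 4.24 in wild type, 3.90 and 4.03 in human CAR mice) and between 3.78 and 4.29 on the knockout arrays. The other 3 bile duct markers tested, Krt19 (0.09), Tspan8 (0.34) and Sox9 (-0.29), did not pass. Prom1 and Sult1e1 were also the members that passed, both higher, among 13 genes known to be higher in female mouse liver. Of all genes 2.71% were higher.

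Among the remaining genes with the largest positive differences, Fhit, a hydrolase of dinucleoside polyphosphates, read 8.05 on both wild-type TCPOBOP arrays, against 5.93 and 5.28 in human CAR CITCO livers (2.45, SE 0.17). D17H6S56E-5 read 8.45 and 8.28 in wild-type TCPOBOP livers, against 5.86 and 5.80 in human CAR CITCO livers (2.53, SE 0.16). Mical1, an enzyme that takes actin filaments apart, read 6.34 and 6.62 in wild-type TCPOBOP livers, against 4.03 and 3.91 in human CAR CITCO livers, where it was dim (2.51, SE 0.17). With CITCO in human CAR mice the change of these 3 genes from corn oil lay between -0.09 and 0.10. Meig1 (2.27), Lratd1 (1.96), the pancreatic lipase relative Pnliprp1 (1.96), the tubulin Tubb2a (1.96) and the DNA damage kinase gene Atr (1.92) were likewise dim on both CITCO arrays. Each of these 5 lay between 5.16 and 6.68 in wild-type TCPOBOP livers. Tubb2a lost the call without CITCO array 1 or TCPOBOP array 2, and its other probe set gave 0.33. Mical1, Meig1, Lratd1, Pnliprp1 and Atr passed the filter on dim probe sets only through the wild-type TCPOBOP arrays, where they were high. Their differences set a level against one near the floor of the array.

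Fatty acid oxidation ran the other way. Of 32 genes of mitochondrial and peroxisomal fatty acid oxidation 18 were lower in wild type on TCPOBOP and none was higher, where 2.67% of all genes were lower. The median difference was -0.67, and 3 of the 32 differences were positive. Mean levels over the list were 8.50 and 8.44 in wild-type TCPOBOP livers, against 9.25 and 9.0 in human CAR CITCO livers, with corn oil levels of 9.05 and 9.26 in wild type and 9.11 and 9.12 in human CAR mice. The individual calls rested on few mice: 2 genes were called without CITCO array 1, 3 without TCPOBOP array 2, 8 without TCPOBOP array 1 and 18 without CITCO array 2, while the median stayed between -0.54 and -0.82 in these 4 fits. In CAR.KO mice, on other arrays, the difference between TCPOBOP and CITCO had the opposite sign, with 0 of the 32 genes past the test, a median of 0.31 and 32 of 32 differences positive, against a median of 0.01 over all genes.

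The carnitine shuttle, which brings fatty acids into mitochondria, was lower at 3 steps. Cpt1a, its entry enzyme, read 9.14 and 8.92 in wild-type TCPOBOP livers, against 10.23 and 10.02 in human CAR CITCO livers (-1.09, SE 0.22, adjusted p = 0.00831). Cpt2, the inner membrane enzyme, read 8.02 and 7.96 in wild-type TCPOBOP livers, against 8.93 and 8.86 in human CAR CITCO livers (-0.90, adjusted p = 0.00922), and the carrier Slc25a20 was lower too (-0.76, adjusted p = 0.029). In all 3 the groups were separate, as they were for 45.7% of all genes. Within the mitochondrial cycle the very-long-chain dehydrogenase Acadvl read 9.33 and 9.18 in wild-type TCPOBOP livers, against 10.05 and 9.84 in human CAR CITCO livers (-0.69, SE 0.10, adjusted p = 0.000703). The trifunctional protein subunits Hadha (-0.67) and Hadhb (-0.65), the thiolase Acaa2 (-0.62), the isomerase Eci1 (-0.64), the electron carrier Etfdh (-0.79), Decr1 (-0.68), Acad11 (-0.74) and the short-chain dehydrogenase Acads (-0.41) were lower as well. The medium- and long-chain dehydrogenases Acadm (-0.45, adjusted p = 0.058) and Acadl (-0.49, adjusted p = 0.066) and the electron transfer flavoprotein subunits Etfa (0.03) and Etfb (0.15) did not pass.

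In peroxisomes the thiolase Acaa1b read 10.55 and 10.13 in wild-type TCPOBOP livers, against 11.67 and 11.40 in human CAR CITCO livers (-1.20, adjusted p = 0.00812), and Nudt7, which breaks down coenzyme A, read 9.46 and 8.51 in wild-type TCPOBOP livers, against 10.70 and 10.24 in human CAR CITCO livers (-1.48, adjusted p = 0.0137). Hsd17b4 (-0.66), Ech1 (-1.02) and Eci2 (-0.84) were lower with them. Acot1, a cytosolic acyl-CoA thioesterase, passed (-1.46, adjusted p = 0.0398) but was dim on the arrays of both groups. Against corn oil, 17 of the 18 genes were lower in wild type on TCPOBOP, as were 54.7% of the 245 genes lower in the direct comparison, which uses the same TCPOBOP arrays, and none of the 18 changed by the test in human CAR mice on CITCO, where 0 genes were lower.

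Of 13 other classical targets of PPARalpha, the fatty acid sensor, 2 were lower, where 2.67% of all genes were. Their median was -0.71, and none of the 13 differences was positive. Between TCPOBOP and CITCO in CAR.KO mice their median was 0.50, with 12 of 13 positive and 1 past the test. Cyp4a14, a fatty acid hydroxylase, read 3.77 and 3.62 in wild-type TCPOBOP livers, where it was dim, against 7.30 and 5.86 in human CAR CITCO livers (-2.88, SE 0.77, adjusted p = 0.0398). On corn oil Cyp4a14 read 8.49 and 6.75 in human CAR mice, from which wild type did not differ by the test (-1.87, adjusted p = 0.593). It varied widely elsewhere too, with 4.38 and 7.12 on corn oil in wild type, and its call held in 1 of the 4 fits without an array. Acsm3, a medium-chain acyl-CoA synthetase, was lower by less (-0.88, adjusted p = 0.0191), and that call was likewise kept in 1 of the 4 fits. Ppara itself (-0.56, adjusted p = 0.436) and its targets Plin2 (-1.01), Angptl4 (-0.92) and Vnn1 (-1.22) did not pass.

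Called genes in neighbouring pathways were 2 of 18 in gluconeogenesis and fasting, 1 of 21 in lipogenesis and 0 of 19 in cholesterol synthesis. The share over all genes was 5.38%. Among 18 genes of gluconeogenesis and the fasting response Gys2, liver glycogen synthase, read 7.15 and 6.73 in wild-type TCPOBOP livers, against 8.54 and 8.03 in human CAR CITCO livers (-1.35, adjusted p = 0.00672), and Pygl, liver glycogen phosphorylase, was higher (0.63, adjusted p = 0.0438). The Gys2 call was lost without TCPOBOP array 2 or CITCO array 1, and the Pygl call without any 1 of the 4 arrays. Pck1 (-0.16) and G6pc (-0.35), the defining enzymes of gluconeogenesis, did not pass. Of 21 genes of lipogenesis Acacb, the acetyl-CoA carboxylase that restrains Cpt1a, was lower (-0.94, adjusted p = 0.0103), a call lost without CITCO array 1 or TCPOBOP array 2, and none was higher. None of 19 genes of cholesterol synthesis passed, and Hmgcs1, whose TCPOBOP mice read 8.69 and 10.08, changed sign without TCPOBOP array 2.

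Of 20 genes of bile acid synthesis 1 was higher and 2 lower, against 2.71% and 2.67% of all genes. Cyp8b1, the hydroxylase that directs synthesis to cholic acid, read 8.22 and 7.71 in wild-type TCPOBOP livers, against 10.65 and 9.36 in human CAR CITCO livers (-2.04, SE 0.49, adjusted p = 0.0224), and this call held only without CITCO array 2. Slc27a2, an acyl-CoA synthetase, read 10.94 and 10.73 in wild-type TCPOBOP livers, against 11.80 and 11.86 in human CAR CITCO livers (-1.0, SE 0.13, adjusted p = 0.000235), and kept the call in all 4 fits without an array. Akr1d1, the reductase that shapes the bile acid ring, read 9.67 and 9.65 in wild-type TCPOBOP livers, against 8.88 and 7.76 in human CAR CITCO livers (1.34, adjusted p = 0.0259), a call that held only without CITCO array 1. Cyp7a1, the rate-limiting enzyme, differed by -0.10 and did not pass.

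Retinoid metabolism gave 4 of the 15 largest negative differences. Rdh16f2 read 5.70 and 5.50 in wild-type TCPOBOP livers, against 8.40 and 7.33 in human CAR CITCO livers (-2.27, SE 0.30, adjusted p = 0.000204). On corn oil it read 7.53 and 8.33 in wild type, against 9.30 and 8.76 in human CAR mice (-1.10, adjusted p = 0.267). The difference between its changes from corn oil did not pass (-1.17, adjusted p = 0.190). Retsat, retinol saturase, read 7.55 and 7.34 in wild-type TCPOBOP livers, against 9.47 and 9.35 in human CAR CITCO livers (-1.96, SE 0.26, adjusted p = 0.000265). The related dehydrogenases Rdh9 (-1.97, adjusted p = 0.00379) and Rdh16 (-1.63, adjusted p = 0.00134) were dim on both TCPOBOP arrays, and Rdh9 lost its call without CITCO array 1. Rdh9, Rdh16 and Rdh16f2 are close paralogs whose probe sets may bind each other's transcripts. In the same list of 23 genes the retinoic acid receptor Rarb was higher, with 6.12 and 6.49 in wild-type TCPOBOP livers, against 5.34 and 5.09 in human CAR CITCO livers (1.09, adjusted p = 0.00284), as was Bco1, which cleaves carotene (0.62, adjusted p = 0.0206). Bco1 also read higher in wild type on corn oil (5.65 and 6.05) than in human CAR mice on corn oil (5.17 and 5.12). That corn oil difference of 0.71 did not pass. The list of 23 genes held 2 higher and 4 lower genes, against 2.71% and 2.67% of all genes, and its median was -0.09.

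Other genes low in wild type on TCPOBOP included Abca8a, a lipid transporter, with 7.43 and 6.90 in wild-type TCPOBOP livers, against 9.16 and 9.02 in human CAR CITCO livers (-1.92, SE 0.31, adjusted p = 0.00152). Txnip, which binds thioredoxin and responds to glucose, read 7.19 and 6.90 in wild-type TCPOBOP livers, against 8.51 and 8.58 in human CAR CITCO livers (-1.50, SE 0.23, adjusted p = 0.00106). Both kept the call in all 4 fits without an array. Hsd17b6 (-1.80), Clec2d (-1.77), Phlda1 (-1.71), Pebp1 (-1.60) and Susd4 (-1.55) passed with adjusted p-values between 0.0186 and 0.0396, and each lost the call in at least 3 of these fits. Clec2d was dim on both TCPOBOP arrays, and the other probe set of Hsd17b6 gave -0.14.

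Of 29 acute phase proteins and chemokines 1 passed, where 5.38% of all genes did. This was the chemokine Ccl9, with 10.91 and 10.97 in wild-type TCPOBOP livers, against 9.06 and 9.23 in human CAR CITCO livers (1.80, SE 0.31, adjusted p = 0.00284). None of 20 interferon response genes and none of 23 genes of endoplasmic reticulum stress passed, with medians of 0.15 and 0.31. Of 28 neighbours of Nr1i3 on chromosome 1, Pfdn2, a prefoldin subunit, was lower (-0.64, adjusted p = 0.00519), a call lost without CITCO array 1 or TCPOBOP array 2, where 2.67% of all genes were lower, and the median of 0.10 lay near that of all genes. Among 17 genes known to be higher in male mouse liver 5 were lower, namely Slco1a1, Susd4, Nudt7, C8a (-0.57) and C8b (-0.56), where 2.67% of all genes were lower, and this count was 0 without CITCO array 1 or without TCPOBOP array 2.

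Changes from corn oil were set side by side for both pairs of genotype and ligand, which share their treated arrays with the direct comparison. In wild type on TCPOBOP 563 genes (6.14%) changed, 306 up (3.34%) and 257 down (2.80%), and in human CAR on CITCO 8 genes (0.0873%) changed, all 8 up. At an unadjusted p under 0.05 the CITCO counts were 328 up and 359 down. All 8 genes raised by CITCO were also raised by TCPOBOP in wild type, and the corn oil arrays of the genotypes are separate, so these 2 comparisons share no array. They were Cyp2b10, Cyp2c55, Cyp2c54, Cyp2c29, Cnmd, Ces2a, 4931406C07Rik and Abcc3. The number of genes changed by CITCO was 1 to 20 when single arrays were left out, with 20 without human CAR corn oil array 2.

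Within these 8 genes the end levels of some differed and of others did not pass the test. Cyp2c29, a P450 of the Cyp2c family, read 12.44 and 12.56 in wild-type TCPOBOP livers, against 12.26 and 12.30 in human CAR CITCO livers, a difference of 0.22 (95% interval -0.17 to 0.61, adjusted p = 0.541). Its change from corn oil was 1.5 in wild type and 1.57 in human CAR mice. Cnmd, chondromodulin, read 7.76 and 7.46 in wild-type TCPOBOP livers, against 8.29 and 7.22 in human CAR CITCO livers (-0.15, 95% interval -1.03 to 0.73), and its sign turned to 0.38 without CITCO array 1. With Cyp2b10 these were the 3 of the 8 genes whose end levels did not differ by the test, and the widths of their intervals do not show that the levels were alike.

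Cyp2c54 had a difference of 1.38 with ligand and of 1.38 on corn oil. It read 12.42 and 12.23 in wild-type TCPOBOP livers, against 11 and 10.89 in human CAR CITCO livers, and 10.68 and 10.36 in wild type on corn oil, against 8.53 and 9.77 in human CAR mice on corn oil. Its change from corn oil was 1.80 in wild type on TCPOBOP and 1.80 in human CAR on CITCO (difference between the changes 0.01, 95% interval -0.93 to 0.94), and the corn oil difference did not pass (adjusted p = 0.18). For Cyp2c55, Ces2a and 4931406C07Rik the change was larger in wild type on TCPOBOP by 2.91, 1.5 and 1.04, each past the test of the difference between the changes. For Abcc3 the change was 1.73 in wild type on TCPOBOP and 0.99 in human CAR on CITCO, and the difference between the changes did not pass (adjusted p = 0.074).

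Promoters of 6 of these 8 genes were in the table. The hexamers AGGTCA or AGTTCA, which nuclear receptors of the CAR type bind, were in 2 of the 6. They were in 21.6% of the tested genes with a promoter and 27.6% of all promoters. A direct repeat of 2 of them, 4 bases apart, was in 0 of the 6 and in 7 of all 27025 promoters. For a repeat this rare, a count of 0 in 6 promoters cannot tell these genes from others. Sequence further than 250 bases before the start was not searched.

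**Figure D4:**
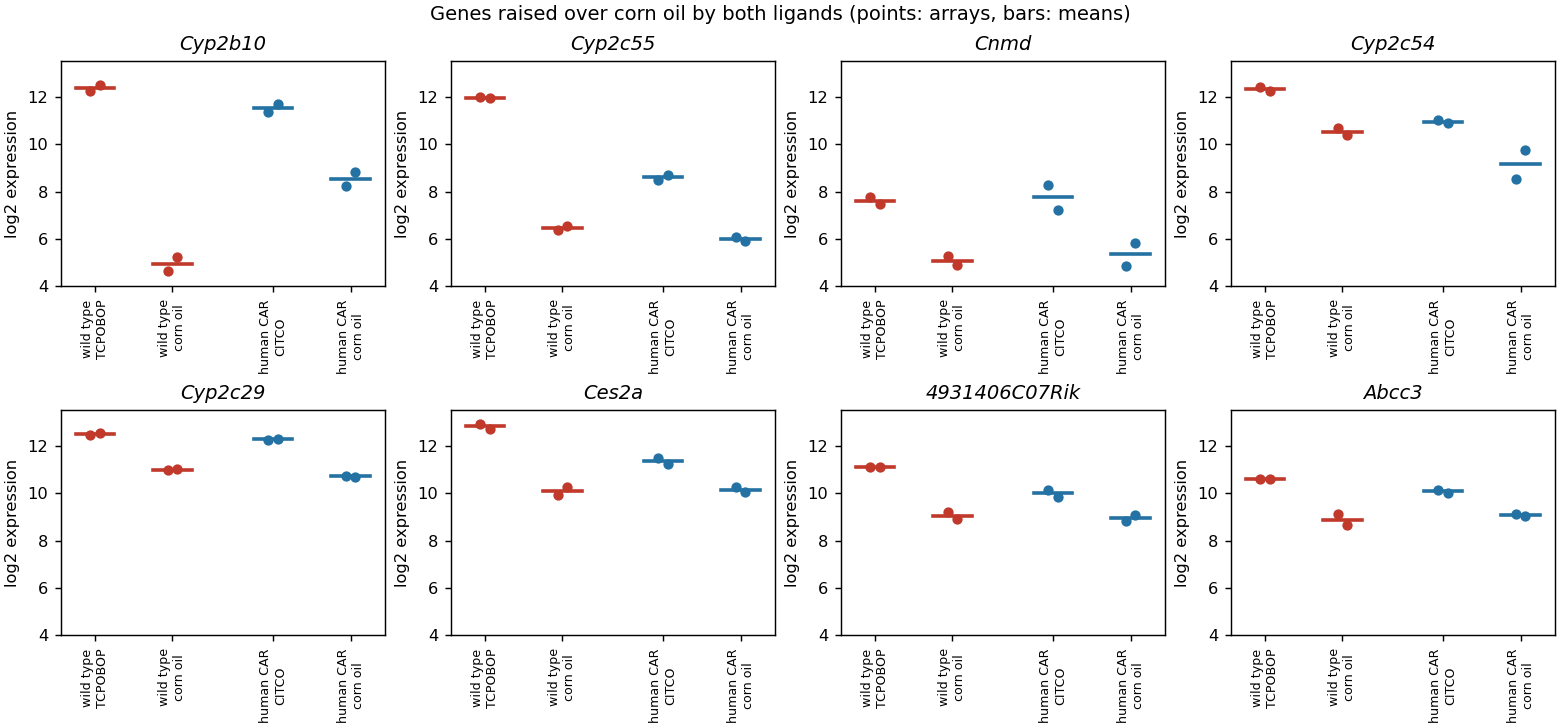
Log2 expression on each array (points) and group means (bars) of the 8 genes raised over corn oil both by TCPOBOP in wild type (red) and by CITCO in human CAR mice (blue), all panels on 1 scale. Cyp2c29 ends at 12.44 and 12.56 in wild type on TCPOBOP and at 12.26 and 12.30 in human CAR on CITCO, Cyp2c55 ends at 11.98 and 11.94 in wild type on TCPOBOP and at 8.50 and 8.70 in human CAR on CITCO, and Cyp2b10 starts higher in human CAR mice on corn oil.

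Of the 179 genes (1.95%) whose change from corn oil differed between the pairs, 115 (1.25%) had a higher and 64 (0.698%) a lower change in wild type on TCPOBOP. They held 38.7% of the 248 genes higher in the direct comparison, and among those 11 of the 15 mitosis and 8 of the 11 replication genes. They held 21.2% of the 245 lower genes, and 4 of the 18 fatty acid oxidation genes among those. These contrasts share arrays, so their counts are not independent of each other.

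The genotypes without ligand and the ligands without a receptor were measured on arrays that the direct comparison does not use. On corn oil 5 genes (0.0545%) differed between wild type and human CAR mice, 4 higher (0.0436%) and 1 lower (0.0109%) in wild type. The higher ones were Nr1i3 (2.26), the pi-class glutathione transferase Gstp3 (4.47), Spp2 (1.31) and Plekhb2 (1.00), the last 3 named after their values were seen, and the lower one was Cyp2b10 (-3.58). Nr1i3 was the 1 gene of the 493 that also differed on corn oil. Gstp3 read 6.81 and 10.14 in wild-type TCPOBOP livers, against 6.53 and 6.13 in human CAR CITCO livers, and its difference with ligand (2.2, adjusted p = 0.0509) did not pass. Without human CAR corn oil array 2 the corn oil count was 22.

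On corn oil the 248 genes that were higher in the direct comparison had a median difference of -0.03, with 41.9% of them positive, and the 245 lower genes a median of 0.00, with 50.2% positive. Over all tested genes the corn oil median was -0.00, with 49.0% positive. Corn oil differences of at least 1 in either direction were found in 2 of the 248 higher and 5 of the 245 lower genes. They were found in 33 of all 9167. The 5th percentile was -0.62 for the lower genes and -0.32 for all. Lower genes with such offsets included Cyp4a14 (-1.87), Rdh16f2 (-1.10), Slco1a1 (1.41) and Cyp8b1 (1.08), none past the corn oil test.

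**Figure D5:**
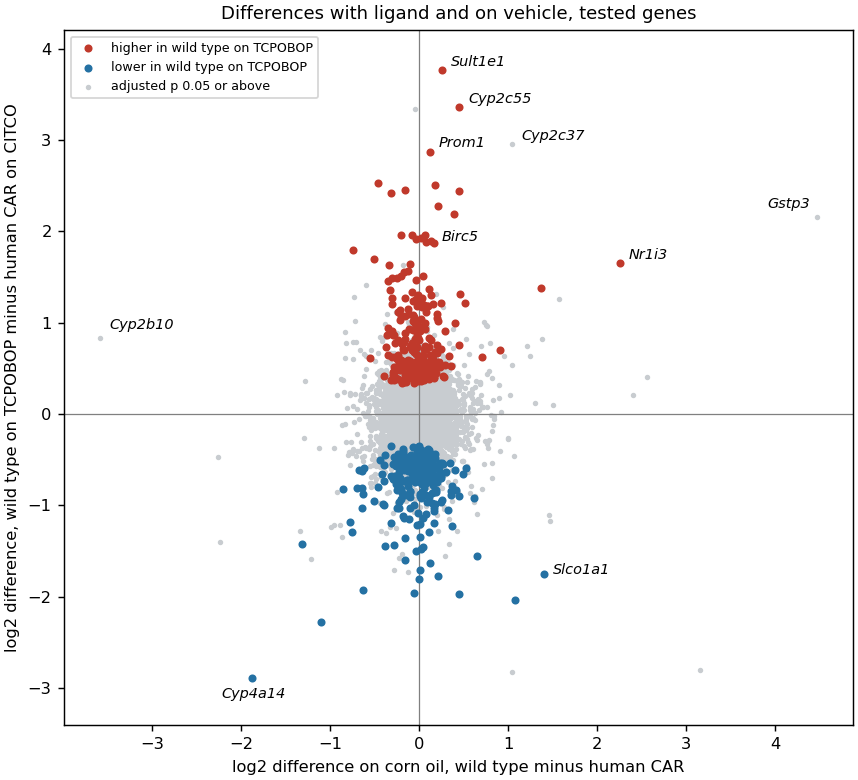
Log2 difference of each tested gene, with ligand (vertical, wild type on TCPOBOP minus human CAR on CITCO) and on corn oil (horizontal, wild type minus human CAR), from separate mice; genes higher in wild type on TCPOBOP are red, lower ones blue and those with an adjusted p of 0.05 or above grey. Most coloured genes lie near the vertical axis, Nr1i3 lies to the right at 2.26 and 1.65, and Cyp2b10 to the left at -3.58 and 0.83.

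In CAR.KO mice TCPOBOP and CITCO livers differed in 2 genes (0.0218%), 1 in each direction (0.0109%), and neither was among the 493. Cyp4a12a, a fatty acid and steroid hydroxylase, was higher on TCPOBOP by 1.87, and Parp16, a mono-ADP-ribosyltransferase, was lower (-1.09). At an unadjusted p under 0.05 there were 344 higher and 373 lower genes in this comparison. The 248 genes higher in the direct comparison had a knockout median of 0.07, with 67.7% positive, against 0.01 and 52.0% over all tested genes. The 245 lower genes had a knockout median of -0.01, with 46.1% positive. For Cyp2b10, Cyp2c55, Gstm3 and Birc5 the knockout differences were 0.19, 0.34, 0.43 and 0.02.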

How the data were processed

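The deposited log2 values of 22690 probe sets on 24 Affymetrix arrays came from RMA, run by the authors in R 2.15.0, per the submitters' processing notes. Per the labels' protocols, total liver RNA was extracted with TRIzol and labelled with biotin, with 1 mouse on each array. The range of values was 2.03 to 14.1, with 0 missing, and all 24 columns were used (0 left unused) without further normalisation. No source used here gives hybridisation dates. Being arrays, they have no read depth, and the number of mice, 2 per group, limits the precision.

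Genes were named from the platform annotation: after 64 control probe sets were left out, 20380 probe sets had 1 symbol, 691 several and 1555 were not listed. Gene IDs of 20351 matched the RefSeq table of GRCm38.p6. For 12393 genes the probe set of highest mean was kept, and the test covered the 9167 above the 40th percentile of at least 2 arrays. All 24 arrays entered 1 limma fit (version 3.58.1, R 4.3.3) of 12 group means, with 12 residual degrees of freedom and a prior of 4.31, with Benjamini-Hochberg adjustment within each comparison. Among 276 pairs of arrays the largest share of equal values was 0.0485%, so none was a copy. Same-numbered mice did not deviate together (r = -0.187 in the direct comparison), and their numbers were taken as names only.

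The members and the 29 gene lists were chosen with earlier results of these data known, and no test of a list was made. Named were 8 genes whatever their p, the 15 largest called differences of each sign, up to 4 called members per list (or 2 where none was called), up to 10 genes raised and 5 lowered by both ligands, and up to 5 of each sign called in the direct comparison and on corn oil, or in knockouts. Other list members are named for their role, and they, with Gstp3, Plekhb2, Spp2, Cyp2c37 and Cyp2c50, were chosen after their values were seen. Of 63 named genes that passed, 22 had other probe sets, 31 in all, of which 2 had the opposite sign (Gadd45b and Rgs5). On simulated arrays (20 runs with 200 changed genes) 89.2% of 2-fold and 98.4% of 4-fold changes were recovered and 5.25% of calls were false. These arrays had independent normal noise, with the same SD for a gene in all groups. The real groups differed in spread (median SD 0.0948 for wild type on TCPOBOP, 0.151 for human CAR on CITCO). The simulated rates therefore need not hold for the real calls. Promoter windows, 250 bases before to 50 after the start, were searched on both strands for motifs spelled out in the text. Alternatives are in the closing section. Plots used matplotlib 3.10.9 under Python 3.11.15, with pandas 2.3.3 and numpy 2.4.6.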

Additional observations from a re-analysis of the deposited data

Results flagged for a closer look

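For 36 named genes the change from corn oil differed between wild type on TCPOBOP and human CAR on CITCO, by limma's test of the difference between the changes at an adjusted p under 0.05. The ligands and their doses differ along with the genotypes, and the values below are the change in wild type on TCPOBOP minus the change in human CAR on CITCO, on the log2 scale.

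Enzymes of drug metabolism with the larger rise in wild type on TCPOBOP were Cyp2b10 (4.41), Cyp2c55 (2.91), Gstm3 (2.73), Gstm2 (1.80), Gstt3 (1.91), Ces2a (1.5), Cyb5a (0.62) and Sult1e1 (3.50). Cell cycle and growth genes with the larger rise there were Birc5 (1.76), Stmn1 (1.75), Cks1b (1.97), Mki67 (1.69), Mcm6 (1.99), Mcm7 (1.32), Mcm5 (1.08), Rrm2 (1.80) and Gadd45b (1.81). Other genes that rose more in wild type on TCPOBOP were Prom1 (2.74), D17H6S56E-5 (2.99), Mical1 (2.33), Fhit (2.60), Meig1 (2.06), Lratd1 (2.04), Pnliprp1 (1.89), Tubb2a (2.16), Atr (1.95), Ccl9 (2.54) and 4931406C07Rik (1.04). Birc5, Mki67, Mcm5, Sult1e1, Mical1, Meig1, Lratd1, Pnliprp1, Tubb2a and Atr were dim on both CITCO arrays and on the corn oil arrays of both genotypes. Their rises start near the floor of the array.

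Genes whose change was more negative in wild type on TCPOBOP were the bile acid gene Cyp8b1 (-3.12), the carrier Slco1a1 (-3.16), the retinoid genes Rdh9 (-2.42), Retsat (-1.90) and Rdh16 (-1.76), and Txnip (-1.47), Acacb (-1.20) and Slc27a2 (-0.94). Among them Slco1a1 had values of 7.77 and 9.28 in the 2 human CAR mice on corn oil, a gap of over 1 log2 unit within a group, and Cyp8b1 had 10.65 and 9.36 in human CAR mice on CITCO.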

How the results depend on the processing

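The number of genes that differed between wild type on TCPOBOP and human CAR on CITCO (493) was 161 with array weights, 234 with only the 4 arrays compared and 898 without the 2 phenobarbital arrays that stand apart, and 169 to 637 when 1 array was left out. The same count was 439 to 570 under cyclic loess, other limits for dim probe sets, the mean of probe sets and a variance trend. The corn oil count (5) was 12 without the 2 arrays and 3 to 22 with 1 array left out. The knockout count (2) was 1 with cyclic loess and with a variance trend, 0 without a filter, with the limit at the 60th percentile and with the mean of probe sets, 10 with array weights and with only its own arrays, and 0 to 1 with 1 array left out. The count for the difference between the changes (179) was 69 with array weights, 340 without the 2 arrays, 51 with only its own arrays and 67 to 209 with 1 array left out. The count for TCPOBOP in wild type (563) was 884 without the 2 arrays and 265 to 315 with 1 array left out. The count for CITCO in human CAR mice (8) was 5 with a variance trend, 0 with array weights, 4 with only its own arrays and 1 to 20 with 1 array left out. The fits with only the arrays compared have fewer degrees of freedom, yet their counts were lower in some comparisons and higher in others. The cause of the changed counts was not tested for any setting.

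With the replicate number as a block the counts were 500 for the direct comparison, 181 for the difference between the changes, 592 for TCPOBOP in wild type, 6 for CITCO in human CAR mice, 8 on corn oil and 0 in knockouts. A crossed pairing, added after seeing the data because same-numbered arrays correlated at -0.187, gave 468 in the direct comparison and 8 on corn oil.

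Of the 63 named genes that passed, 33 passed in all 4 fits without an array, 30 lost the call in at least 1 and 0 changed sign. Under the other settings 584 of their 622 values stayed past the threshold. Among named genes that did not pass, 3 changed sign with 1 array left out: Stab2 (-0.79 to 0.0836) and Cnmd (-0.68 to 0.38), whose highest values were without CITCO array 1, and Hmgcs1 (-0.0622 to 1.32), whose lowest was without TCPOBOP array 2. The number of mitosis genes called was 26 without a filter on dim probe sets and 7 with the limit at the 60th percentile, and that of replication genes 6 at that limit. With only the 4 arrays compared, 8 replication genes were called higher and 1 lower. Signal over background limits all genes named as dim, and 2 mice a group limit every value.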
